A study of Mus musculus with 4 samples.

Results

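The genes of fatty acid oxidation and ketogenesis were followed in the liver of F1 mice, as a list of 38 gene symbols that were looked up by name in the 4 mRNA tables. 37 of the 38 were listed among the 8797 genes of the tables, and Pdk4, a kinase that restrains pyruvate dehydrogenase in fasting, had no row. 19 of the 37 also had a B6-allele frequency, against 3632 of all genes. The livers came from female mice at 5 months of age. Each of 2 reciprocal crosses gave 2 mice. In the first the mother was of the strain MSM and the father of the strain B6 (MSM-mother mice), and in the second the parents were exchanged (B6-mother mice). Both strains are inbred, no treatment is given in the labels, and every mouse carries 1 chromosome set of each strain. The pair of crosses differs in which parent gave which set, and in whatever else comes with the strain of the mother. The design cannot tell these apart. Poly(A) RNA was sequenced, expression was given in FPKM (fragments mapped to a gene, scaled to its length and to the fragments mapped in the library), and the B6-allele frequency is the fraction of allele-assigned reads of a gene that came from the B6 chromosome set.

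In liver, fatty acids are taken up, activated to acyl-CoA and carried into mitochondria as carnitine esters, where each turn of β-oxidation removes an acetyl unit by dehydrogenation, hydration, a further dehydrogenation and thiolysis. Very long and branched chains are shortened first in peroxisomes. In fasting, the acetyl-CoA is turned into ketone bodies for other tissues, and many genes of these steps are induced by the nuclear receptor PPARα, which binds direct repeats of the half-site AGGTCA as a dimer with RXR.

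The tables gave no read counts per gene, so the depth behind a single value is unknown, and its precision was taken from the spread between mice. With 2 mice per cross, an exact permutation test of a single gene cannot give a two-sided p below 0.333, and p-values below come from limma models fitted across all genes. These p-values rest on the spread between 4 mice, and limma draws the spread of each gene toward that of all genes. A standard error (SE) given below is thus not the spread of that gene alone. The labels do not say whether the mice shared litters. 9 of 10 hepatocyte markers were listed with mean FPKM of 172 to 6313 (Alb had no row). Their summed FPKM was 16895 and 18138 in the MSM-mother mice and 12118 and 15204 in the B6-mother mice, and its part in the counts of members below was not tested. None of 7 lymphocyte and none of 6 muscle markers was listed. A missing row, as for Pdk4 and Alb, does not show that a gene was not expressed. Summed over the table, FPKM reached 671875 in MSM-mother replicate 1, 539647 in MSM-mother replicate 2, 529024 in B6-mother replicate 1 and 572780 in B6-mother replicate 2, so the first of these mice had the highest sum. In a bulk sample, fewer cells of a type and less RNA per cell cannot be told apart.

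The oxidation genes were among the more highly expressed genes of the liver. Their median mean FPKM was 150 against 11.5 over all genes, 35 of 37 lay above the upper quartile of 29.4, and 15 were among the 500 genes with the highest mean. Their median variation was lower than that over all genes, without a comparison at similar expression. The coefficient of variation over the 4 mice had a median of 8.73% in the members and 11.4% over all genes, and ranged from 1.91% in Hadhb to 31.5% in Pex11a. In the following, 4 values of a gene are given in the order of replicates 1 and 2 with an MSM mother and replicates 1 and 2 with a B6 mother.

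**Figure D1:**
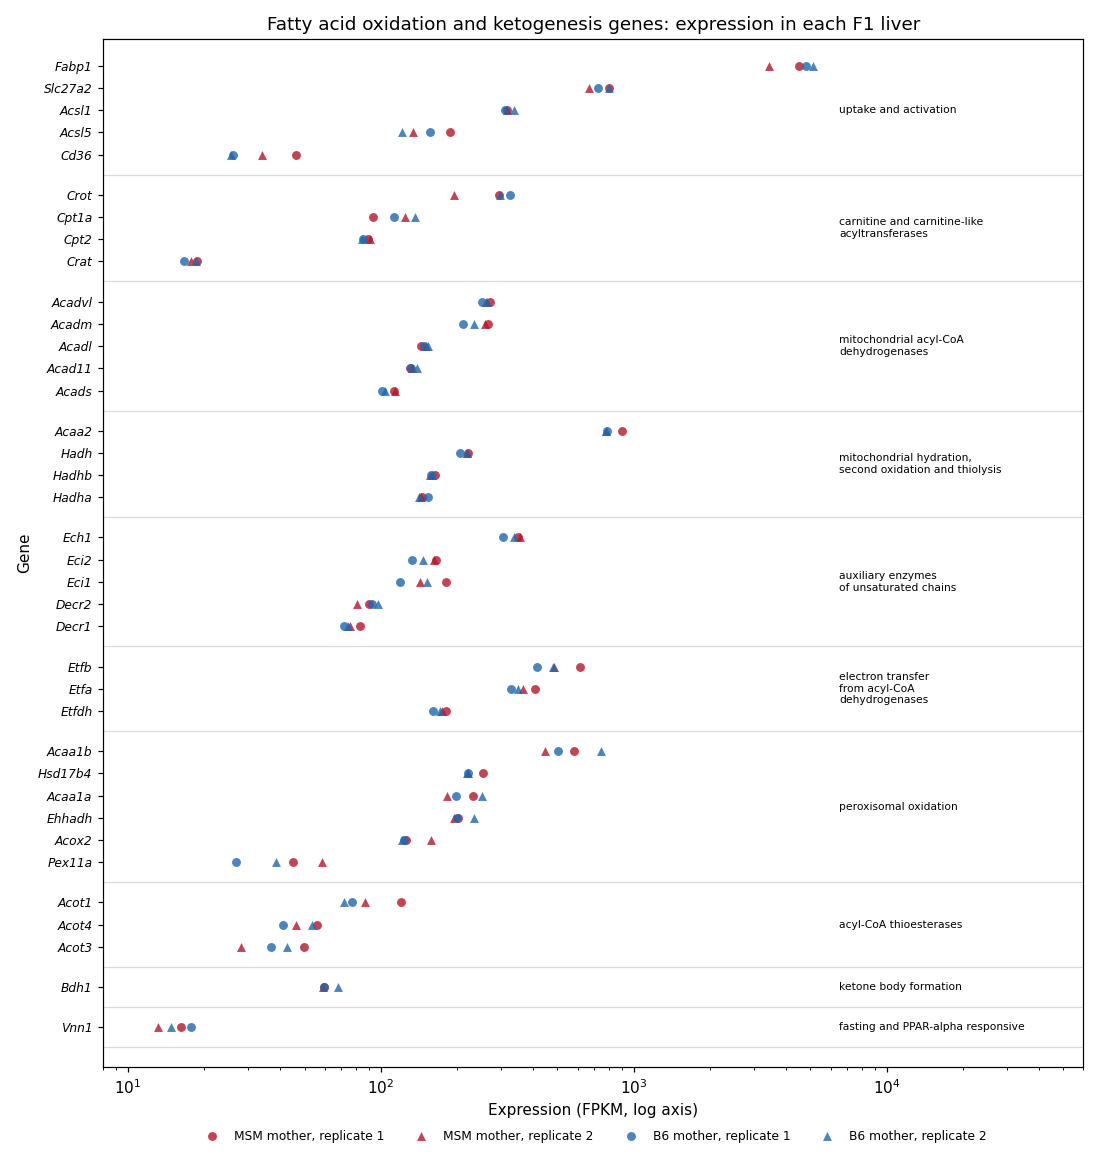
Expression of the 37 listed genes in FPKM on a log axis, grouped by step, with 1 point per mouse (red, MSM mother; blue, B6 mother; circle, replicate 1; triangle, replicate 2). Fabp1 stands at 3432 to 5120, most dehydrogenases lie close together, and the points of Cd36, Pex11a, Acot1 and Acot3 are spread.

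No gene of the list differed between the crosses after adjustment. 0 of 37 had an adjusted p under 0.05 (limma, Benjamini-Hochberg over 8797 genes), where the share over all genes was 0.0455%. At an unadjusted p under 0.05, Cd36 and Pex11a were higher with an MSM mother, 2 of 37 against 4.46% of all genes, and 0 of 37 were higher with a B6 mother, against 4.41%. The difference of log2(FPKM + 1), MSM mother minus B6 mother, had a median of 0.06 over the members and 0.02 over all genes, and ranged from -0.37 in Crot to 0.66 in Pex11a. This scale shrinks the differences of weakly expressed genes.

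**Figure D2:**
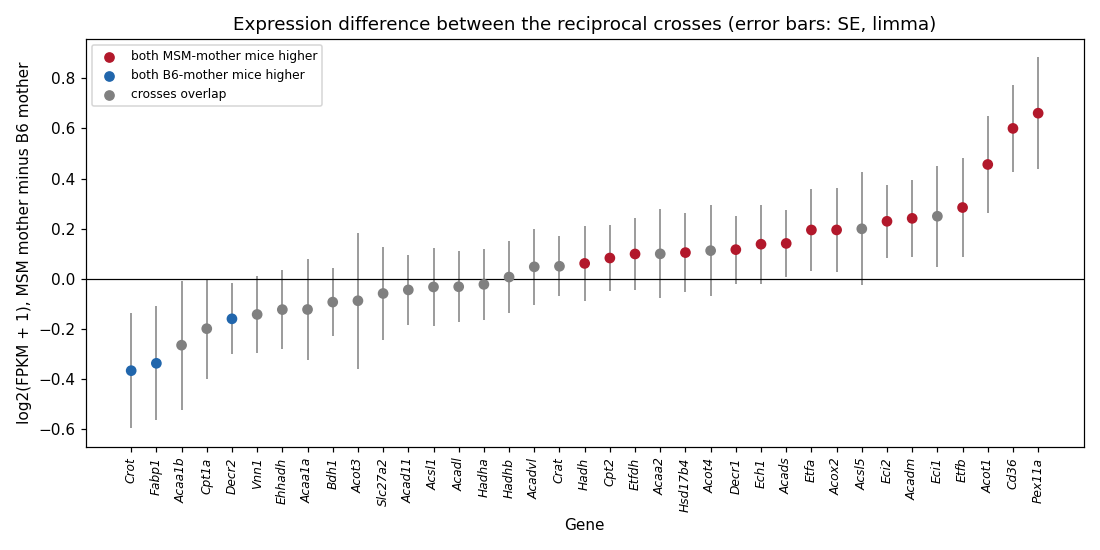
Difference of log2(FPKM + 1) between the reciprocal crosses for each of the 37 genes, MSM mother minus B6 mother, with the standard error from limma (2 mice per cross). Red and blue points are genes whose crosses do not overlap in the deposited values. Cd36 at 0.60 and Pex11a at 0.66 are the highest, Crot at -0.37 and Fabp1 at -0.34 the lowest, and no gene passed the adjusted threshold.

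Counted by rank, both MSM-mother mice stood above both B6-mother mice in 15 of 37 members, against 23.0% of all genes, and both B6-mother mice stood above in 3 of 37 (Crot, Decr2 and Fabp1), against 19.4%. This balance depended on the scaling of the libraries. It was 12 against 6 members with each mouse centred on its median over all genes, where the shares of all genes were 20.3% and 22.2%. With quantile normalization, which gives every mouse the same distribution of values, it turned to 5 against 8, where the shares were 21.7% and 21.8%.

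Uptake and activation genes spanned the widest range of levels. Fabp1, the cytosolic fatty acid carrier of hepatocytes, was measured at 4497, 3432, 4814 and 5120 FPKM, the highest mean of the list (4466 ± 734 FPKM, SD, n = 4). Both MSM-mother mice lay below both B6-mother mice, but replicate 1 of the MSM-mother cross was nearer to the other cross than to its own replicate. The difference of -0.34 (SE 0.23) had an adjusted p of 0.654 in limma, and was -0.14 without replicate 2 and -0.53 without replicate 1 of the MSM-mother cross. Slc27a2, a very long-chain acyl-CoA synthetase that also transports fatty acids, was measured at 797, 665, 720 and 799 FPKM. The crosses overlapped, with the lowest mouse of the MSM-mother cross and the highest of the B6-mother cross.

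Cd36, a membrane receptor that takes up long-chain fatty acids, was measured at 46.4, 33.9, 26.0 and 25.7 FPKM. Both MSM-mother mice were higher, and the B6-mother mice were nearly equal. The difference of 0.60 (SE 0.17) had an unadjusted p of 0.0144 and an adjusted p of 0.463 in limma, and was 0.38 without replicate 1 of the MSM-mother cross. Cells other than hepatocytes can carry Cd36, so markers of such cells were read in the same mice. Of 6 adipocyte markers only Fabp4 was listed, at 16.8, 16.2, 11.5 and 10.4 FPKM, in the same direction. The defining marker Adipoq had no row, which says nothing about its level. 6 of 8 Kupffer cell and macrophage markers were listed and moved the other way, with summed FPKM of 115 to 125 in the MSM-mother mice against 154 to 168 in the B6-mother mice. The 8 sinusoidal endothelial markers summed to 171 to 188 FPKM in the former and 191 to 204 FPKM in the latter. The part of these cells in the Cd36 value was not tested. The acyl-CoA synthetases Acsl1 (319 ± 11.2 FPKM) and Acsl5 (150 ± 28.9 FPKM, SD, n = 4 each) had crosses that overlapped.

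Among the acyltransferases, Cpt1a, the regulated entry step of mitochondrial oxidation, ranged from 93.7 to 137 FPKM with overlapping crosses, while its partner Cpt2 of the inner membrane stayed between 84.3 and 90.5 FPKM. Crot, which makes octanoyl-carnitine in peroxisomes, was lowest in replicate 2 of the MSM-mother cross (196 FPKM) and lay between 293 and 324 FPKM in the other mice. Crat, carnitine acetyltransferase, was among the low members at 18.0 ± 0.97 FPKM (SD, n = 4).

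The groups of the acyl-CoA dehydrogenases and of the next mitochondrial steps had the lowest median coefficients of variation. The 5 acyl-CoA dehydrogenase genes, whose products act on chains of different length, had mean FPKM of 108 (Acads) to 262 (Acadvl) and a median coefficient of variation of 3.04%. That of Acadl, Acad11 and Acadvl was 2.70% to 3.04%, and that of Acadm 10.4%. The 4 genes of the next steps had a median of 3.41%. Hadha and Hadhb, the subunits of the trifunctional protein, are neighbours on chromosome 5 and had mean FPKM of 147 and 159, with Hadhb at 164, 156, 158 and 160 FPKM in the 4 mice. Hadh, the short-chain hydroxyacyl-CoA dehydrogenase, was at 216 ± 7.69 FPKM (SD, n = 4). Acaa2, the mitochondrial thiolase and the second highest gene of the list, was measured at 899, 775, 781 and 777 FPKM. Only replicate 1 of the MSM-mother cross stood above the other mice, and the difference between the crosses, 0.10 (SE 0.18), changed sign without that mouse.

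Electrons from the acyl-CoA dehydrogenases pass through the flavoprotein of Etfa and Etfb to the oxidoreductase of Etfdh. Etfb was measured at 611, 485, 416 and 481 FPKM. Both MSM-mother mice were higher than both B6-mother mice, the gap between 485 and 481 being small beside the spread within each cross. The difference was 0.28 (SE 0.20) with an adjusted p of 0.659 in limma. It was 0.12 without replicate 1 and 0.45 without replicate 2 of the MSM-mother cross, and 0.18 without replicate 1 of the B6-mother cross. Etfa (363 ± 34.6 FPKM) and Etfdh (172 ± 8.47 FPKM, SD, n = 4 each) showed the same order of the mice. For the auxiliary enzymes of unsaturated chains, Ech1, Eci1, Eci2, Decr1 and Decr2, mean FPKM ran from 76.3 (Decr1) to 337 (Ech1). In Ech1, Eci2 and Decr1 both MSM-mother mice were higher, and in Decr2 both B6-mother mice were.

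In the peroxisomal group, Pex11a, a membrane protein that promotes the division of peroxisomes, was measured at 45.1, 58.8, 26.8 and 38.7 FPKM. Both MSM-mother mice were higher, and replicate 2 was the higher mouse in each cross. The difference of 0.66 (SE 0.22) had an unadjusted p of 0.0260 and an adjusted p of 0.512 in limma, and was 0.40 without replicate 1 of the B6-mother cross. Acaa1b, a peroxisomal thiolase, was measured at 583, 444, 503 and 745 FPKM, so that the highest and the next to lowest mouse were of the same cross. The difference of -0.27 (SE 0.26) was within the spread. Its paralog Acaa1a was measured at 232, 183, 199 and 252 FPKM, with the mice in the same order. Ehhadh, the peroxisomal bifunctional enzyme (208 ± 17.1 FPKM), Hsd17b4, its counterpart for branched chains (229 ± 16.1 FPKM), and Acox2, the oxidase of branched chains and bile acid intermediates (132 ± 17.2 FPKM, SD, n = 4 each), completed the group.

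The acyl-CoA thioesterases, which release free fatty acids from CoA, were the most variable group, with a median coefficient of variation of 23.3%. Acot1, the cytosolic form, was measured at 121, 86.7, 76.9 and 71.7 FPKM. Both MSM-mother mice were higher, and the difference of 0.46 (SE 0.19) had an adjusted p of 0.570 in limma, and was 0.22 without replicate 1 and 0.69 without replicate 2 of the MSM-mother cross. Acot3, a peroxisomal form, was measured at 49.6, 27.9, 37.0 and 42.6 FPKM, where both the highest and the lowest mouse had an MSM mother. Acot4 had a mean of 49.2 ± 6.75 FPKM (SD, n = 4). Bdh1, the dehydrogenase that forms β-hydroxybutyrate in mitochondria, was measured at 59.7, 59.3, 59.7 and 67.7 FPKM. Vnn1, a pantetheinase induced through PPARα, was the lowest member at 15.5 ± 1.98 FPKM (SD, n = 4).

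The members did not follow a single order of the mice. Relative to its own mean over the 4 mice on the log2(FPKM + 1) scale, the median member deviated by 0.067, -0.017, -0.056 and 0.003 in the 4 mice, where the median of all genes deviated by 0.032, -0.015, -0.016 and -0.003. 18 of 37 members had their highest value in replicate 1 of the MSM-mother cross (39.1% of all genes) and 11 in replicate 2 of the B6-mother cross (13.8% of all genes). 15 had their lowest value in replicate 1 of the B6-mother cross (32.3% of all genes). Under quantile normalization the median deviation of replicate 1 of the MSM-mother cross was -0.073, so the direction of the high values in that mouse rested on the scaling.

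A pair of orders took in 12 genes. In Acadm, Decr1, Eci2, Etfa, Etfb, Etfdh and Hadh, which all act in mitochondrial oxidation (Eci2 also in peroxisomes), the lowest mouse was replicate 1 with a B6 mother, followed by replicate 2 with a B6 mother, replicate 2 with an MSM mother and replicate 1 with an MSM mother, an order held by 10.8% of all genes. In Acaa1a, Acaa1b, Bdh1, Ehhadh and Slc27a2 the lowest mouse was replicate 2 with an MSM mother, followed by replicate 1 with a B6 mother, replicate 1 with an MSM mother and replicate 2 with a B6 mother, an order held by 2.63% of all genes. Acaa1a, Acaa1b, Ehhadh and Slc27a2 encode peroxisomal enzymes or, for Slc27a2, an enzyme found in peroxisomes and the endoplasmic reticulum. The orders did not part the compartments. The peroxisomal members Hsd17b4, Acox2, Pex11a, Crot and Decr2 held other orders, as did the mitochondrial members Acadvl, Acadl, Acads, Hadha, Hadhb and Acaa2. The orders were read on the deposited values only, without another scaling. They were read after the values were seen, with 4 mice, and are a description without a test.

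**Figure D3:**
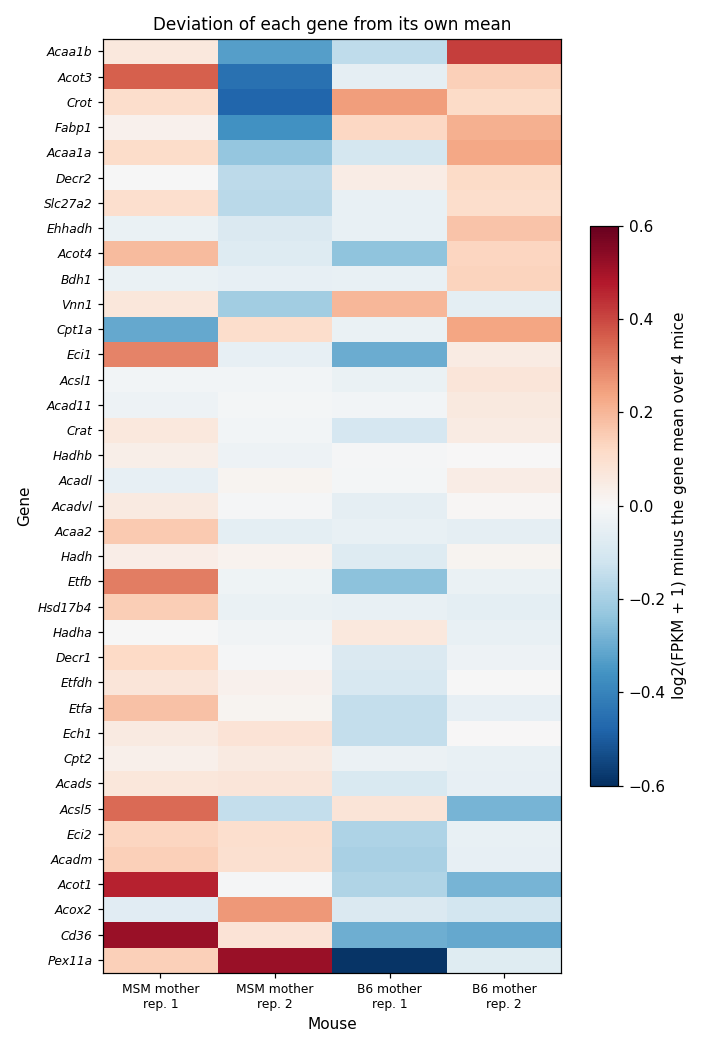
Deviation of log2(FPKM + 1) from the mean of the gene over the 4 mice, for the 37 genes (rows, sorted by replicate 2 with an MSM mother minus replicate 2 with a B6 mother) in each mouse (columns). Red is above and blue below the mean of the gene. Acaa1b, Acot3, Crot and Fabp1 are low in replicate 2 with an MSM mother, and Cd36 and Pex11a are low in both B6-mother mice.

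None of the related lists held a gene that was called in expression. Of 26 symbols of regulators, 23 were listed, 0 had an adjusted p under 0.05 between the crosses in limma, and at an unadjusted p under 0.05, 2 were higher with an MSM mother (Cebpb and Lpin1) and 1 with a B6 mother (Nr1d1). Ppara was measured at 38.6, 47.8, 42.6 and 57.8 FPKM, with overlapping crosses. Of 58 further symbols of oxidation and ketogenesis, 51 were listed, 0 were called in limma (2 in each direction at an unadjusted p under 0.05), and 18 were higher in both MSM-mother mice against 3 in both B6-mother mice, where the shares of all genes were 23.0% and 19.4%. With each mouse centred on its median over all genes this balance stayed at 18 against 3, where the shares were 20.3% and 22.2%. Under quantile normalization it was 14 against 8, where the shares were 21.7% and 21.8%. Of 29 symbols of PPARα targets outside oxidation, 25 were listed and 0 were called (at an unadjusted p under 0.05, 3 were higher with an MSM mother and 1 with a B6 mother). Of 16 symbols of fatty acid synthesis, 15 were listed and 0 were called after adjustment. At an unadjusted p under 0.05, 7 of the 15 were higher with a B6 mother and 1 with an MSM mother, where 4.41% and 4.46% of all genes were. At that threshold 0 of the 37 members of the main list were higher with a B6 mother and 2 with an MSM mother. The lists were not tested against each other.

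Allele frequencies were given for members by their position on the chromosome. A frequency was present for 15 of 15 members that start beyond 100 Mb on chromosomes 1 to 15 and X or beyond 10 Mb on chromosomes 16 to 19, where 89.8% of all genes had one. Below these coordinates 4 of 22 members had one, where 1.98% of all genes did. The 4 were Fabp1, Hadhb, Etfa and Etfb, all of high expression. Their frequencies varied between the mice from 0 to 1 and could not be read as allele use. Hadhb, for example, was at 0, 1, 0 and 0.60, and Etfb at 0, 1, 0.50 and 0.57. The median SD within a cross was 0.52 for these 4 genes and 0.0084 for the 15 members beyond the coordinates, where it was 0.0245 over all genes beyond them.

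The 15 members beyond the coordinates used both alleles. Their mean frequency ranged from 0.2998 in Acaa1a to 0.630 in Bdh1, 12 of the 15 lay between 0.4 and 0.6, as 79.7% of all genes beyond the coordinates did, and the median distance from equal use was 0.22 in log2 odds, against 0.24 over all genes there. No member reached a mean of 0.8 or more, the limit above which the study called a gene B6-biased, or of 0.2 or less, its limit for MSM bias, where 3.19% of all genes did. The members were steady around these values. In 13 of the 15, all 4 mice lay on the same side of 0.5, against 57.7% of all genes beyond the coordinates. Over the 19 members with a frequency this was also 13, against 56.6% of all genes. The members were also more highly expressed than most genes. No comparison with genes of similar expression was made, here or for the SD within a cross, and the part of expression level was not tested.

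6 of the 19 members with a frequency departed from equal allele use (limma on log2 odds, adjusted p under 0.05), 4 toward B6 and 2 toward MSM. Over all genes 36.2% did, 22.6% toward B6 and 13.6% toward MSM, so the share in the members was near the background. The departures were mostly small. Leaving out either B6-mother mouse left 1 member called, Acaa1a. Leaving out either MSM-mother mouse left Acaa1a, Bdh1 and Decr2 of the 6 and added Etfb, toward opposite alleles with log2 odds of 3.42 without replicate 1 and -3.21 without replicate 2, so that the calls of Hsd17b4, Acad11 and Acadm were each lost without any 1 of the 4 mice.

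**Figure D4:**
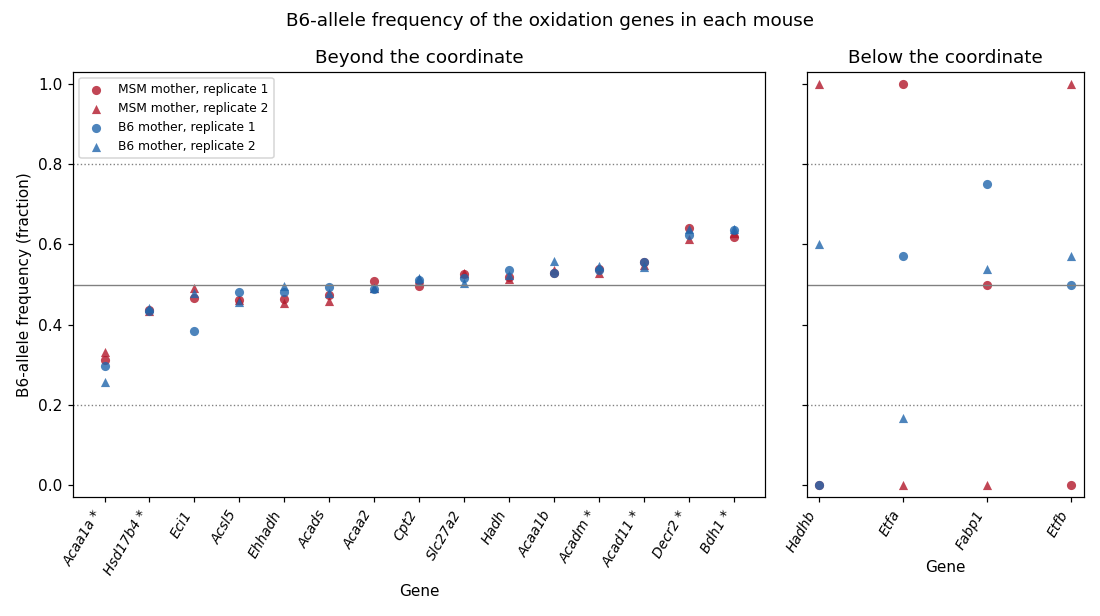
B6-allele frequency of the 19 genes with a value in each mouse (red, MSM mother; blue, B6 mother; circle, replicate 1; triangle, replicate 2), for 15 genes beyond and 4 below the chromosome coordinates given in the text. The solid line is equal use, the dotted lines are 0.8 and 0.2, and an asterisk marks an adjusted p under 0.05 in limma. The mice coincide in most genes on the left, Acaa1a lies apart at 0.256 to 0.332, and the genes on the right scatter from 0 to 1 (in Hadhb 2 points coincide at 0).

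Acaa1a, at chr9:119339676-119350299 of mm10 on the plus strand, had the largest departure. Its B6-allele frequency was 0.313, 0.332, 0.297 and 0.256. All 4 mice lay below every value of the other members beyond the coordinates, and the MSM allele gave 2.34 times as many of the assigned reads as the B6 allele. The log2 odds were -1.23 (SE 0.07) with an adjusted p of 0.0050 in limma, and the adjusted p stayed between 0.0026 and 0.0454 in 11 alternatives. Acaa1b, at chr9:119148023-119157093 on the minus strand, lies nearby on the same chromosome, and its frequency was 0.528, 0.536, 0.530 and 0.558. The paralogs thus leaned to opposite sides in every mouse, by 0.215, 0.204, 0.233 and 0.302 in frequency, but the lean of Acaa1b, with log2 odds of 0.22 (SE 0.05), had an adjusted p of 0.0538 in limma, and passed the threshold in 3 of 11 alternatives, with adjusted p of 0.0425 to 0.189. The ratio of their expression, Acaa1b over Acaa1a, was 2.52, 2.43, 2.52 and 2.95.

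The coding sequences of this pair are so alike that reads could be placed at either gene, and the authors let the aligner report a single place per read. Over 1272 coding bases, 96.5% were identical and 44 differed in the mm10 reference, which is the B6 sequence. 178 of 1123 windows of 150 bases, or 15.9%, held no difference. The windows with most and with no differences are shown, spliced. They mark where a single read within coding bases can and cannot be told apart in the reference. The reads came in pairs, and the other read of a pair was not considered. Capitals mark the 16 bases that differ within coding bases 453 to 602, at chr9:119346476-119347786 for Acaa1a and at chr9:119150848-119151908 for Acaa1b, both spans holding introns.
Acaa1a, coding bases 453 to 602: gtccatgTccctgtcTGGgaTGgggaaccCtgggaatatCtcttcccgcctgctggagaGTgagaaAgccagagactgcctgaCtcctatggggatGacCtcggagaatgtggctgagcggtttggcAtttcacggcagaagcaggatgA
Acaa1b, coding bases 453 to 602: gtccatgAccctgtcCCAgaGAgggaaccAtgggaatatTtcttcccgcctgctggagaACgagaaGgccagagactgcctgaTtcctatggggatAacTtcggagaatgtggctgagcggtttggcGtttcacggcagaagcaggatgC
Both genes, coding bases 748 to 897: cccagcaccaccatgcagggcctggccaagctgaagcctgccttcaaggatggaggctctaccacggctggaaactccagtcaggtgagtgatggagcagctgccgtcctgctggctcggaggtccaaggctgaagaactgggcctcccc
How far reads were exchanged between the genes, and whether that moved either frequency, was not tested, so the values of both genes are uncertain to that extent.

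**Figure D5:**
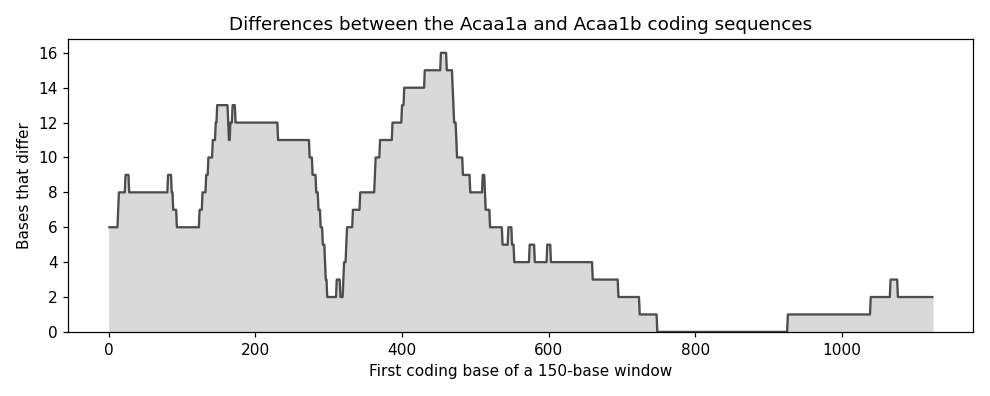
Number of bases that differ between the Acaa1a and Acaa1b coding sequences of the mm10 reference in each window of 150 bases, plotted at the first coding base of the window. Windows reach 16 differences near base 453 and hold none from base 748 on over 178 starting points.

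The sequences before the start sites of the pair were not aligned to each other. They are shown for the 120 bases upstream of each RefSeq start (GRCm38.p6). The GC box GGGCGG and the CCAAT box are in capitals, read on both strands. Acaa1a, chr9:119341174-119341293, plus strand, held 3 GC boxes and 1 CCAAT box. Acaa1b, chr9:119157094-119157213, minus strand, held no GC box and 1 CCAAT box. The RefSeq start of Acaa1a lies inside the GENCODE span of the gene given above, whose first base is further upstream, so the annotations differ in the start they give.
Acaa1a: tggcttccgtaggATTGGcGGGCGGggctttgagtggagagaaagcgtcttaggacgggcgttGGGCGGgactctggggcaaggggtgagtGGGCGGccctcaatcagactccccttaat
Acaa1b: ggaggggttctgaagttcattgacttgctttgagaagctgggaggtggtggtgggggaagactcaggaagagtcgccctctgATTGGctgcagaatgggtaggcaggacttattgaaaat
In the longer windows from 250 bases before to 50 after a start, 33 members had a RefSeq entry, with 37 windows. 23 of the 37 windows held a GC box, against 35.7% of all 32851 windows and 62.9% of those of the listed genes, and 20 held a CCAAT box, against 37.4% and 37.9%.

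Bdh1, at chr16:31422280-31458901, had B6-allele frequencies of 0.618, 0.628, 0.637 and 0.638. All mice were above 0.5 within a narrow range, and the B6 allele gave 1.71 times as many reads as the MSM allele. The log2 odds were 0.77 (SE 0.04) with an adjusted p of 0.0048 in limma. Decr2, the peroxisomal dienoyl-CoA reductase at chr17:26081208-26090337, had frequencies of 0.642, 0.615, 0.624 and 0.639. With log2 odds of 0.77 (SE 0.05) and an adjusted p of 0.0062 in limma it was of the same size, at 1.70 times as many reads from the B6 allele. Without a B6-mother mouse the adjusted p of both genes rose to at most 0.0540 and 0.0610.

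Hsd17b4, at chr18:50128201-50196269, leaned the other way at 0.436, 0.434, 0.433 and 0.442, the tightest values of the list. The log2 odds were -0.37 (SE 0.04) with an adjusted p of 0.0130 in limma, an MSM allele with 1.29 times the reads of the B6 allele. Acad11, at chr9:104063377-104127725, had frequencies of 0.556, 0.549, 0.557 and 0.543, with log2 odds of 0.30 (SE 0.04) and an adjusted p of 0.0216. Acadm, the medium-chain dehydrogenase at chr3:153922357-153944632, had frequencies of 0.539, 0.528, 0.537 and 0.547, with log2 odds of 0.22 (SE 0.04) and an adjusted p of 0.0371 in limma. The median frequency over all genes was itself 0.509 to 0.512 in the mice, and with each mouse centred on that median the adjusted p of Acadm was 0.0769. All 6 genes are protein-coding, and the frequency is given per gene, so no exon or UTR can be singled out.

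The other 9 members beyond the coordinates did not pass in the fit of all genes. In 11 alternatives Acaa1b passed in 3, Acsl5 in 2 and Ehhadh in 1, the last with each mouse centred on its median, and the other 6 in none. Eci1 was the most variable, at 0.467, 0.492, 0.384 and 0.480. Acsl5 (mean 0.466), Acads (0.477) and Ehhadh (0.474) lay below 0.5 in every mouse, and Slc27a2 (0.519) and Hadh (0.523) above it in every mouse. Cpt2 (0.509) and Acaa2 (0.496) had mice on both sides. These values do not show equal use, since an adjusted p that misses the threshold leaves a small departure possible.

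No member was called for a difference in frequency between the crosses. With so few mice per cross, this does not show equal frequencies, since a missed threshold leaves a difference possible. 0 of 19 were called (limma on log2 odds, adjusted p under 0.05), against 0.0826% of all genes. 0 of 19 had an unadjusted p under 0.05, against 5.23%. The 19 include the 4 members below the coordinates, whose frequencies could not be read as allele use. For Acaa1a the mean was 0.323 with an MSM mother and 0.277 with a B6 mother, with an adjusted p of 0.873 in limma. The crosses overlapped in some members, such as Cpt2, and not in others, such as Acaa1a. The same allele was the higher one whichever parent gave it in all 6 members called for allelic imbalance, each with all 4 mice on the same side of 0.5.

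Outside the list, 27 of the 51 further oxidation and ketogenesis genes had a frequency, and 5 departed toward B6 and 5 toward MSM. That is 10 of 27, where 36.2% of all genes departed in either direction, so the share was near the background. The largest of these were Bdh2, a cytosolic dehydrogenase related to Bdh1 by name, at 0.772, 0.787, 0.762 and 0.788, Nudt7, a peroxisomal CoA diphosphatase, at 0.797, 0.728, 0.776 and 0.748, and Acad10 at 0.247, 0.293, 0.234 and 0.263. Pccb and Pcca, the subunits of propionyl-CoA carboxylase, which handles the end product of odd chains, leaned to opposite sides, with log2 odds of 0.57 (SE 0.04) and -0.50 (SE 0.05), as read by limma with adjusted p of 0.0067 and 0.0112. Mut, which acts after them, was at -0.42 (SE 0.04). Of 7 regulators with a frequency, Cebpb, Hnf4a and Sirt3 departed toward B6 and Gcgr toward MSM. Cebpb, a liver transcription factor, was at 0.819, 0.790, 0.843 and 0.779. Of 15 PPARα targets outside oxidation with a frequency, 4 departed toward B6 and 3 toward MSM, the most distant from equal use being Cyp4a14, a fatty acid ω-hydroxylase, at 0.988 or more in every mouse. Of 9 fatty acid synthesis genes, Scd1 departed toward B6 and Elovl6 toward MSM. Each of these counts stands beside 22.6% of all genes toward B6 and 13.6% toward MSM, and with so few genes a list nothing is read from them about the lists.

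The DNA to which PPARα and RXR could bind was looked for in the promoter windows of the 33 members. A pair of AGGTCA half-sites with 1 base between them, on either strand and with at most 2 mismatches, was found in 5 of their 37 windows, each of a different member, against 3.86% of all windows and 3.32% of the windows of listed genes. The 5 matches are shown in capitals with 8 bases on each side, on the strand of the gene, since these are the members whose windows hold such letters. Fabp1 had 1 mismatch and the others 2, and that of Acox2 lies past its RefSeq start. Those of Cd36 and Acox2 lie inside the GENCODE spans of the genes, chr5:17781690-17888801 and chr14:8225511-8259353, both on the minus strand. For these genes too the annotations differ in the start. The positions are chr6:71199804-71199832 for Fabp1, chr12:84038358-84038386 for Acot4, chr14:8258810-8258838 for Acox2, chr5:17835939-17835967 for Cd36 and chr9:55512300-55512328 for Etfa (GRCm38.p6, RefSeq).
Fabp1: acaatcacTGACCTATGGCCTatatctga
Acot4: ccgaagcaTGACCTTTGGCCGgtctgtgc
Acox2: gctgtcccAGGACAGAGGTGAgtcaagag
Cd36: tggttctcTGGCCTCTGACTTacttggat
Etfa: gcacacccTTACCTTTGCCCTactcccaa
The 5 genes did not share a direction between the crosses, with differences of -0.34, 0.11, 0.19, 0.60 and 0.19 in log2(FPKM + 1) in that order. A match is a description of the letters, and a window without a match says nothing about binding. All of these sequences are of the reference strain, and no MSM base was read.

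The thioesterases, which lie in a row on chromosome 12, shared a smaller part of their aligned coding positions than Acaa1a and Acaa1b. Gaps were counted as differences. Acot1 and its neighbour Acot2 shared 85.6% of these positions. Of their windows of 150 bases, 17.0% held no difference, against 15.9% between Acaa1a and Acaa1b. Acot1 and Acot3 shared 81.5%, with 4.7% of such windows, while Acot4 held a difference from Acot1 and from Acot3 in every window. The FPKM of Acot1 and Acot3 may thus hold reads of their neighbours, and this was not tested. None of the 3 members had a B6-allele frequency.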

How the data were processed

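Liver poly(A) RNA of 4 female F1 mice was measured, and groups and replicate numbers came from the labels. The authors deposited per gene and mouse an FPKM value and a fraction, the B6-allele frequency. Per the paper's methods, the authors used Trim Galore! for trimming and Tophat2 for alignment to an mm10 genome with masked SNP positions, keeping 1 alignment per read, then SNPsplit to part the alleles and Cuffdiff to count them. Tool versions are not given in the sources used here. A read placed at 1 of several near-identical genes can move values between them.

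Expression was tested on log2(FPKM + 1) and frequencies, limited to 0.01 to 0.99, on log2 odds with limma 3.58.1 in R 4.3.3, fitted over all genes of 4 mice without a replicate block, with two-sided tests and Benjamini-Hochberg adjustment at 0.05. The planned filter of a mean FPKM of at least 1 removed no gene, the lowest mean being 2.50. Imbalance is the intercept over both crosses, and the cross term gives the difference. Models were checked on simulated data. Tables and plots were made with Python 3.11.15, numpy 2.4.6, pandas 2.3.3 and matplotlib 3.10.9. Positions came from GENCODE M21 and promoter windows from RefSeq.

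The members and lists were chosen with earlier results of these data known. Values of every mouse are given for members called in a limma test, the 5 with the highest mean FPKM and the 5 with the largest range. Of other lists, at most 6 called genes by adjusted p fall under the rule. Further genes named were chosen after their values were seen. Of the marker lists not used in the text, 3 of 8 stellate, 1 of 6 cholangiocyte, 1 of 6 pancreatic acinar, 4 of 6 erythroid and 12 of 16 clock symbols were listed, and between the crosses 0 were called (2 erythroid and 1 clock gene at an unadjusted p under 0.05).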

Additional observations from a re-analysis of the deposited data

How the results depend on the processing

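In expression, 0 members were called in the 11 alternatives run (pseudocount, filters, scaling, variance trend, replicate block, each mouse left out), while the count over all genes went from 4 to 285 with the replicate block and to 13 to 21 with a mouse left out. Where a mouse is left out, the lone mouse of its cross is assumed to vary like the others. Of the named differences, none of which was called, Acaa2 turned from 0.10 to -0.0393 under quantile normalization, and with a mouse left out Acaa2 ranged from -0.00779 to 0.21, Slc27a2 from -0.19 to 0.0725, Acaa1b from -0.55 to 0.0175 and Acot3 from -0.49 to 0.32. Under quantile normalization the median deviation of the members was -0.0730 in replicate 1 with an MSM mother and 0.0193 in replicate 1 with a B6 mother. The cause was not tested.

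The number of members with allelic imbalance was 6 to 8 under other limits, scales, filters, centring and prior variances, 3 with the replicate block (Acaa1a, Bdh1 and Decr2) and 1 to 4 with a mouse left out (Etfb among the 4 when an MSM-mother mouse is left out). Over all genes it was 1316, 775 with the block and 181 to 514 with a mouse left out, where fewer mice were in the fit. Of 11 alternatives, Acaa1a was called in 11, Bdh1 and Decr2 in 9 each, Hsd17b4 and Acad11 in 6 each and Acadm in 5. The replicate numbers only share a number. Across genes, the difference of replicate 1 and 2 in one cross correlated with that in the other with r of 0.0038. With limits of 0.7 and 0.3, 1 member passed (Acaa1a at 0.29978). With a mouse left out, 0 to 1 passed, namely Etfa at 0.185 without replicate 1 and Hadhb at 0.15 without replicate 2 of the MSM-mother cross, both below the coordinates. The alternatives limited to genes beyond the coordinates, with a robust prior variance, and for the counts of non-overlapping members and other listed genes were chosen after seeing the data. The frequency difference between crosses stayed at 0 members in 10 alternatives. Reads per gene and allele were not given, so what depth limits in a single value could not be assessed.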
